A study of Mus musculus with 12 samples.

Results

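B cells of the spleen that lacked LSD1 were followed from the transitional stage into a marginal zone phenotype made in culture. The comparison took the 3 libraries of knockout marginal zone cells derived ex vivo (eMZB_KO) against the 3 libraries of knockout transitional cells (TrB_KO), 6 of the 12 libraries of the series. The other 6 were their wild-type counterparts, 3 of eMZB_WT and 3 of TrB_WT, and set the wild-type change beside the knockout one. They also entered the scaling factors and the estimate of spread behind the knockout SEs and p-values. All mice were female C57BL/6J. TrB_KO cells came from LSD1-knockout spleens, received no stimulation, and were sorted as B220+ CD93+ cells negative for Thy1.1, F4/80 and CD11b. For eMZB_KO, transitional cells of the same genotype spent 3 days in culture with BAFF and DL1, a ligand of Notch, before B220+ CD21+ CD1d+ cells were sorted under the same exclusions. RNA from 2000 cells went into each library. The deleted allele, the Cre line that removed it, the age of the mice and whether replicates came from separate animals could not be taken from the labels used here, so p-values rest on a spread between libraries that may be technical. Cell stage, culture, stimulation and sorting gate changed together between both groups, and their shares in a change cannot be told apart.

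LSD1, encoded by Kdm1a, removes methyl groups from lysine 4 of histone H3 and works in complexes that silence enhancers and promoters. Transitional B cells are the newly formed cells that reach the spleen from the bone marrow, still carrying CD93, and become either follicular or marginal zone cells. The marginal zone fate depends on signalling through Notch2 after it meets a Delta-like ligand on stromal cells, while BAFF keeps the cells alive through its receptor and the noncanonical NF-kB pathway. Marginal zone cells carry much CD21 and CD1d, hold a partly activated state, and answer blood-borne antigens within days by turning into plasma cells.

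The values are FPKM, reads per length of gene and per size of library, divided by 1 scaling factor per library (the median ratio to the geometric mean over 9446 genes above 0 in all 12 libraries). Read totals of the 6 knockout libraries were 11.95 to 18.63 M reads, and 2.06 to 8.78 M of them fell in the 9842 listed genes. TrB_KO replicate 3 stood apart. The listed genes held 61.6% of its reads, against 16.7% to 20.9% in the other 5 transitional libraries, and 285 of them were at 0, against 30 to 52. In eMZB_KO the share of reads was 30.9%, 29.0% and 41.7%, against 17.2% and 20.9% in TrB_KO replicates 1 and 2. In eMZB_WT it was 27.8% to 35.3%. The share thus also differed between the groups compared, and its part in their changes was not tested. Between replicates, Pearson r over all genes was 0.926 to 0.971 for TrB_KO and 0.982 to 0.986 for eMZB_KO, on log2 of scaled FPKM plus 1. Each result below was also computed without TrB_KO replicate 3. Changes are differences in the mean of log2(scaled FPKM + 1), a scale that understates the change of genes at low levels. A gene was called, and is said to have risen or fallen, at a Benjamini-Hochberg adjusted p under 0.05 in limma, and values after ± are SDs of 3 libraries.

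The sorting markers moved with the gates at different sizes. Cr2 (Entrez 12902), the complement receptor CD21, was at 12.9, 11.8 and 15.3 in TrB_KO and 63.9, 63.4 and 65.9 in eMZB_KO. The groups did not overlap, and the log2 change was 2.20 (SE 0.11, adjusted p = 1.17e-07). Cd93 (Entrez 17064), the receptor that marks newly formed B cells, was at 5.09, 4.50 and 6.05 in TrB_KO and 1.01, 0.753 and 0.727 in eMZB_KO, and fell by 1.76 (SE 0.14, adjusted p = 2.66e-06). The third marker, Cd1d1 (Entrez 12479), which presents lipids, was at 22.9, 22.6 and 22.4 in TrB_KO and 27.03, 31.02 and 25.4 in eMZB_KO. Its rise of 0.28 (SE 0.09, adjusted p = 0.0431) was not past the threshold in 9 of the 12 fits with a library left out (largest adjusted p = 0.181) and with replicate numbers as a block (adjusted p = 0.0637). Cd1d2, its neighbour, was not called. Ptprc, which encodes CD45 and its B220 form, had means of 56.5 ± 5.88 and 56.4 ± 3.98. Because these are bulk libraries of a fixed number of cells, fewer cells expressing a gene and less RNA per cell cannot be told apart in any result here. Kdm1a itself was at 3.35, 2.56 and 2.99 in TrB_KO and 2.65, 2.53 and 2.66 in eMZB_KO, with a log2 change of -0.13 (SE 0.26, adjusted p = 0.754). In wild type it was at 8.54, 7.93 and 3.47 in TrB_WT and 7.53, 8.63 and 4.68 in eMZB_WT, so that TrB_WT replicate 3 lay near the knockout libraries and eMZB_WT replicate 3 between them and the other wild-type ones, and a value for the whole gene does not show whether reads came from the deleted part.

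Markers of other cells gave few listed genes. Of 10 myeloid markers 4 were listed (Itgam, Adgre1, Cd68 and Ly6c2), with a summed scaled FPKM of 51.1 to 64.6 in TrB_KO and 50.6 to 58.4 in eMZB_KO. The sum was 12.4 to 14.2 in TrB_WT and 13.01 to 23.0 in eMZB_WT, and most of it in the knockout libraries was Ly6c2, at 46.8, 48.2 and 60.1 in TrB_KO and 48.1, 54.2 and 45.1 in eMZB_KO. Ly6c2 has a near-identical neighbour, Ly6c1, so its share of their reads is uncertain. Of 7 T cell markers Lck alone was listed, and of 4 NK markers Gzmb, at or under 2.05 in the 6 knockout libraries. Hbb-bs was the 1 listed erythroid marker of 5, at 0.920 to 1.93, and Vim the 1 listed stromal marker of 8. Vim fell from 32.6 ± 2.34 to 16.997 ± 4.31. All 6 B cell markers were listed. Their sum was 1738 to 2037 in TrB_KO and 1025 to 1072 in eMZB_KO.

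Of the 9842 genes, 2695 were called, 27.4%, with 1398 higher (14.2%) and 1297 lower (13.2%) in eMZB_KO. The 3 libraries of each group did not overlap for 2665 of the called genes, and for 43.9% of all genes. A change of at least 1 log2 unit was seen in 237 of the genes that rose and 171 of those that fell, and of at least 2 units in 25 and 15. The median absolute change of called genes was 0.60, and the median change of all genes was -0.01. On the values as deposited, without scaling, 460 genes passed, of which 84.1% were higher, against 51.9% after scaling. The median gene moved there by 0.23 between the groups, so directions below are relative to the median gene. Without TrB_KO replicate 3 the deposited values gave 6688 calls and a median change of 0.66, and the scaled values 2868 calls and a median of -0.01. Leaving out 1 library at a time left 1977 (without eMZB_KO replicate 3) to 3082 (without TrB_WT replicate 3) scaled calls. A fit of the 6 knockout libraries alone, with the same factors, gave 2639.

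Genes typical of marginal zone B cells rose together. Of 18 tested members of this list, 15 rose and 1 fell, with a median change of 0.74, against 27.4% called and a median of -0.01 over all genes. The 15 include Cr2 and Cd1d1, whose products CD21 and CD1d were in the sorting gate of eMZB_KO. Their rises are therefore not independent of the sort. Dtx1 (Entrez 14357), a ubiquitin ligase that Notch induces in lymphocytes, was at 4.51, 2.97 and 5.203 in TrB_KO and 41.8, 39.2 and 42.8 in eMZB_KO, a log2 change of 3.04 (SE 0.23, adjusted p = 1.75e-06). The groups lay far apart. S1pr3 (Entrez 13610), a receptor for sphingosine 1-phosphate that positions cells in the marginal zone, was at 3.41, 4.96 and 7.33 in TrB_KO and 18.8, 16.8 and 20.8 in eMZB_KO, and Cd9 (Entrez 12527), a tetraspanin of marginal zone and B1 cells, at 4.76, 3.37 and 2.39 in TrB_KO and 12.02, 11.4 and 15.6 in eMZB_KO. Their changes were 1.71 (SE 0.19, adjusted p = 3.43e-05) and 1.66 (SE 0.18, adjusted p = 3e-05). Smaller rises were seen for the atypical chemokine receptor Ackr3 (from 0.385 ± 0.153 to 2.39 ± 0.189), the cytokine subunit Ebi3 (from 2.67 ± 0.883 to 6.37 ± 0.958), the membrane repair protein Myof (from 1.76 ± 0.237 to 4.54 ± 0.233) and the endoplasmic reticulum chaperone Mzb1 (from 76.4 ± 7.87 to 116 ± 7.13). Nedd9 was the member that fell, and S1pr1 and Mfge8 were not called. In wild type, 14 of the 18 rose, all of them also in knockout, with a median of 0.88. Without eMZB_KO replicate 3 the members that fell were 2.

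The Notch pathway was listed because the culture supplied DL1, also with earlier results of these data known. Notch receptors are cut at the membrane after binding a ligand, first by ADAM proteases and then by gamma-secretase, and the freed domain joins RBPJ on DNA to switch on targets. Of 25 tested members, 5 rose (Lfng, Dtx1, Hes5, Mib2 and Spen) and 3 fell (Maml2, Psen2 and Ncstn), a share of 32.0% near the 27.4% of all genes, with a median of 0.01. Receptors and the DNA-binding factor were not called. Notch2, the receptor of the marginal zone fate, was at 10.6, 10.8 and 17.9 in TrB_KO and 15.02, 15.8 and 10.7 in eMZB_KO, and Rbpj at 1.96, 1.80 and 2.54 in TrB_KO and 2.38, 2.53 and 2.76 in eMZB_KO. Among targets, Hes1 was not called either, at 8.09, 6.92 and 6.99 in TrB_KO and 6.83, 6.53 and 8.74 in eMZB_KO, while Hes5 (Entrez 15208), a repressor of the same family, was at 1.97, 1.64 and 1.39 in TrB_KO and 2.97, 2.88 and 2.64 in eMZB_KO, a log2 change of 0.53 (SE 0.13, adjusted p = 0.00989). Lfng (Entrez 16848), the glycosyltransferase that tunes Notch to Delta-like ligands, was at 1.99, 0.978 and 2.14 in TrB_KO and 3.50, 4.04 and 3.09 in eMZB_KO, a log2 change of 0.77 (SE 0.18, adjusted p = 0.00611). Spen, a corepressor that binds RBPJ, rose from 1.07 ± 0.179 to 2.01 ± 0.362, a call lost without TrB_KO replicate 2, eMZB_KO replicate 1 or eMZB_KO replicate 2 (largest adjusted p = 0.0719). Ncstn, a gamma-secretase subunit, fell from 24.4 ± 2.14 to 17.6 ± 0.904. With replicate numbers as a block, a fit that called 27.3% of all genes, 4 members rose and 1 fell. Without eMZB_KO replicate 1 or 2, 3 members rose and 1 fell, and without TrB_KO replicate 3 or eMZB_KO replicate 3 the members that fell were also 1.

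The letters that RBPJ prefers, GTGGGAA on either strand, were looked for in the window from 250 bases before to 50 bases after the start of each gene (RefSeq promoters, build GRCm38.p6). They stood in 5 of 20 Notch pathway genes with such a window (25.0%) and in 6.97% of 7831 genes tested. The 250 bases before the start are shown for Lfng (chr5:140607091-140607340, plus strand) and Hes5 (chr4:154960673-154960922, plus strand), both of which rose, in the direction of the gene and with each match in capitals. Of the other matched genes Spen rose, Psen2 fell and Aph1a was not called. Starts are those of the RefSeq promoter table, and that of Hes5 lies downstream of the first base of the gene's recorded span, so that its window falls inside the span. The Lfng match began 109 bases before the start, and those of Hes5 began 226 and 83 bases before it, on opposite strands. A match is a run of letters and not a measured site.
Lfng: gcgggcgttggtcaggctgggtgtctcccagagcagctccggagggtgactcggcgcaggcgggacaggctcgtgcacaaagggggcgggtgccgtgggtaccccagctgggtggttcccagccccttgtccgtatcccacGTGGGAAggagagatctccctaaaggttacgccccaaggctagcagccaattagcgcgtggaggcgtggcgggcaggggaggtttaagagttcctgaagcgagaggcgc
Hes5: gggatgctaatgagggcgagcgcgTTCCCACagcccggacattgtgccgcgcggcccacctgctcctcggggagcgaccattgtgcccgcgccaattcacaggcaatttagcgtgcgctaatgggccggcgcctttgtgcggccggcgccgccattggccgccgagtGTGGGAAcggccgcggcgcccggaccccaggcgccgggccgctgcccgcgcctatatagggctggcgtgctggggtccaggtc

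Genes of the transitional and immature stage fell. Of 17 tested, 14 fell and 2 rose (94.1% called, against 27.4% of all genes), with a median of -0.88. In wild type the same 14 fell. Cd93, for which TrB_KO cells were sorted, is among the 14, so its fall is not independent of the sort. Rgs2 (Entrez 19735), which limits signalling by G proteins, was at 15.2, 17.7 and 14.8 in TrB_KO and 1.47, 1.26 and 1.21 in eMZB_KO, a log2 change of -2.87 (SE 0.12, adjusted p = 5.31e-08). The groups did not overlap. Vpreb3, a partner of immature receptor chains, fell from 213 ± 18.8 to 77.04 ± 1.27, and Tifa, an adaptor of TRAF proteins, from 20.3 ± 1.23 to 7.06 ± 0.358. Bmf (Entrez 171543), a BH3-only protein that promotes cell death, was at 2.13, 3.51 and 5.197 in TrB_KO and 0.296, 0.229 and 0.285 in eMZB_KO. Siglecg, an inhibitory lectin of B cells, fell from 184 ± 12.03 to 77.9 ± 3.27, and Bach2, a repressor of plasma cell genes, from 9.73 ± 1.57 to 4.75 ± 0.703. Zfp318 was among those that went the other way. The 2 members that rose were 1 without TrB_KO replicate 1, eMZB_KO replicate 1 or eMZB_KO replicate 2.

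**Figure D1:**
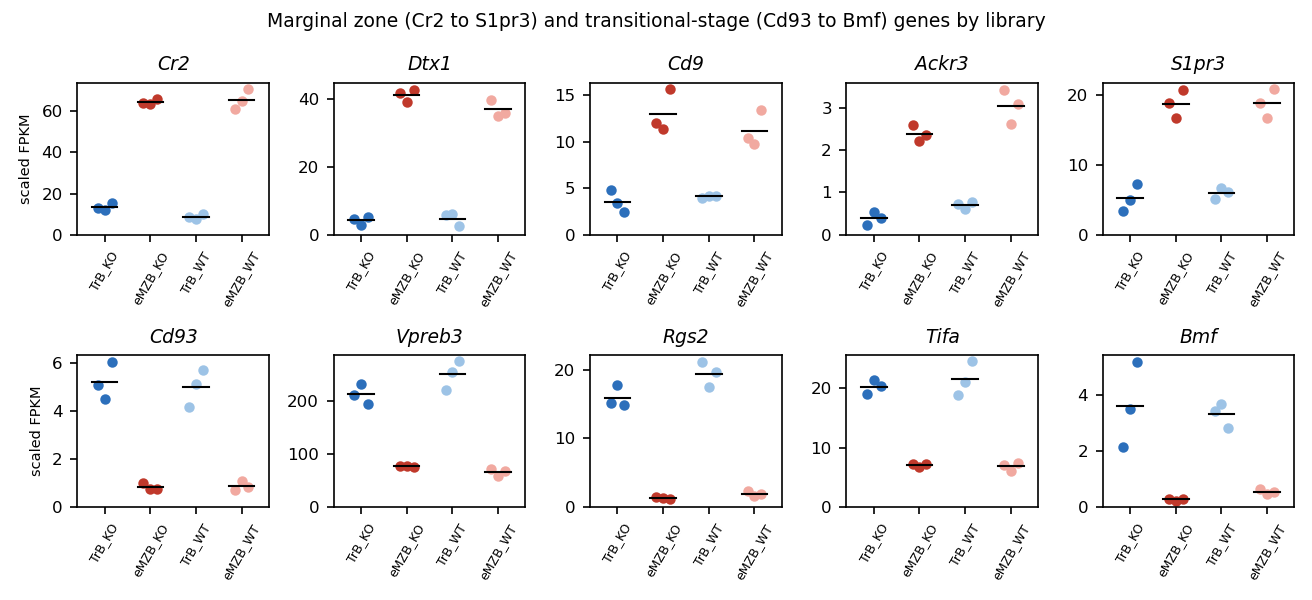
Scaled FPKM of 5 marginal zone genes (upper row) and 5 transitional-stage genes (lower row) in each of the 12 libraries, by group on the x axis, with points for libraries and lines for group means. In the knockout pair the upper genes lie higher in all 3 eMZB_KO libraries (Dtx1 4.23 against 41.3 on average) and the lower genes lie lower (Rgs2 15.9 against 1.31). Cr2 and Cd93 are sorting markers.

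Follicular genes split. Of 12 tested, 4 rose and 5 fell (75% called, against 27.4% of all genes), with a median of 0.03 (-0.09 after quantile normalization). S1pr4 fell from 14.5 ± 1.48 to 4.32 ± 0.0844, the inhibitory receptor Btla from 54.3 ± 4.65 to 29.7 ± 1.45, and Fcer2a, the IgE receptor CD23, from 43.7 ± 3.66 to 26.1 ± 0.613. The wild-type change of Fcer2a was -0.09 (adjusted p = 0.481), and the difference between genotypes was not called (adjusted p = 0.17). Icosl, a ligand for T cell help, rose from 8.72 ± 0.472 to 15.6 ± 0.626.

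Genes of general B cell identity were mostly lower. Of 21 tested, 11 fell and 1 (Irf8) rose (57.1% called, against 27.4% of all genes), with a median of -0.35. In wild type 11 fell and 2 rose, with the same median. Spib (Entrez 272382), an ETS factor of B cells, was at 202, 189 and 284 in TrB_KO and 75.7, 70.2 and 77.2 in eMZB_KO, a log2 change of -1.56 (SE 0.13, adjusted p = 3.97e-06). Cd79a (Entrez 12518), a signalling chain of the B cell receptor, was at 815, 821 and 662 in TrB_KO and 389, 402 and 385 in eMZB_KO, and Cd79b, its partner, fell from 717 ± 87.3 to 384 ± 7.96. Ms4a1 (CD20) fell from 201 ± 8.77 to 131 ± 3.67 and the lineage factor Pax5 from 26.2 ± 7.16 to 15.2 ± 2.50. Without TrB_KO replicate 3 the members that rose were 2. Further down the receptor's signalling path the list split, with 5 of 24 higher, 7 lower (50% called) and a median of 0.00. The kinase Syk fell from 65.1 ± 4.04 to 38.98 ± 2.04, whereas the exchange factor Rasgrp3 rose from 12.04 ± 1.42 to 25.6 ± 0.573, the calcium-driven factor Nfatc1 from 16.1 ± 2.62 to 29.8 ± 0.599 and the tetraspanin Cd81 from 38.7 ± 4.28 to 62.99 ± 1.70.

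BAFF was the other factor in the culture. Of 14 genes of its receptors and the noncanonical NF-kB pathway 1 rose and 4 fell, 35.7% called, near the 27.4% of all genes, and in wild type 4 rose and 3 fell, with a median of 0.20. Tnfrsf13c (Entrez 72049), the BAFF receptor, was at 92.3, 92.6 and 91.2 in TrB_KO and 41.97, 45.7 and 46.4 in eMZB_KO, a log2 change of -1.03 (SE 0.08, adjusted p = 1.61e-06). Tnfrsf13b (TACI) fell from 40.01 ± 2.65 to 23.3 ± 0.867, Cd40 from 33.6 ± 0.907 to 16.3 ± 2.09 and the ubiquitin ligase Birc3, which holds NIK in check, from 31.3 ± 1.92 to 23.6 ± 1.64. Traf1 (Entrez 22029), a signalling adaptor that NF-kB induces, was at 1.02, 0.621 and 0.482 in TrB_KO and 9.38, 9.50 and 9.46 in eMZB_KO and was the member that rose (2 without TrB_WT replicate 2 or 3), with a change of 2.63 (SE 0.13, adjusted p = 1.42e-07). The core of the pathway, with Map3k14, Nfkb2 and Relb, was not called, and the median was -0.16, or 0.10 on the values as deposited, where the median gene was at 0.23. With replicate numbers as a block 2 rose and 5 fell. In the canonical NF-kB list 7 of 19 rose, 3 fell (52.6% called), and the median was 0.07. Bcl2a1d was at 5.63, 5.82 and 2.47 in TrB_KO and 31.1, 26.2 and 31.03 in eMZB_KO and Bcl2a1b at 9.67, 6.27 and 5.22 in TrB_KO and 43.8, 35.5 and 37.7 in eMZB_KO. These are near-identical copies of a gene that protects cells from apoptosis, and how reads were divided among them is uncertain. Cd83, an activation marker, rose from 35.3 ± 3.31 to 70.4 ± 6.55, and the inhibitor Nfkbie from 29.8 ± 2.80 to 38.3 ± 1.36, while Nfkb1, Nfkbia and Ikbkg fell.

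In the BCL2 family and the death pathway, 7 of 18 rose and 4 fell (61.1% called, against 27.4% of all genes). The median was 0.20. Besides the Bcl2a1 copies, the rises held Bcl2, the death agonists Bbc3 (from 0.41 ± 0.136 to 2.38 ± 0.897) and Bid (from 12.1 ± 1.84 to 23.1 ± 1.51), and Pmaip1. Mcl1, a survival factor that mature B cells need, was not called, at 84.4, 69.5 and 73.9 in TrB_KO and 58.5, 69.2 and 69.8 in eMZB_KO. The members that fell were 1 without eMZB_KO replicate 1, and 2 with replicate numbers as a block or without TrB_KO replicate 3, eMZB_KO replicate 2 or 3, or eMZB_WT replicate 2 or 3. Genes of quiescence, which hold resting lymphocytes out of the cell cycle, fell. Of 22 tested, 13 were lower and 1 was higher (63.6% called), and the median was -0.57. Tsc22d3 (Entrez 14605), a glucocorticoid-induced brake on growth also known as GILZ, was at 21.2, 21.4 and 22.9 in TrB_KO and 4.18, 4.40 and 5.48 in eMZB_KO, a log2 change of -2.01 (SE 0.11, adjusted p = 1.42e-07). Txnip, which limits glucose uptake, was at 68.7, 69.5 and 80.8 in TrB_KO and 34.97, 35.2 and 33.4 in eMZB_KO, and fell by 1.06 on the log2 scale. The cell cycle inhibitor Cdkn2d fell from 18.5 ± 0.723 to 8.04 ± 1.80, Btg2 from 27.8 ± 2.03 to 15.97 ± 0.77, and the unusual cyclin Ccng2 from 24.7 ± 3.62 to 13.3 ± 0.656. The member that rose was Cdkn2c, and without TrB_KO replicate 3 or TrB_WT replicate 3 the members that rose were 2 and 3, and with replicate numbers as a block 2. In wild type 10 of the 22 fell, 9 of them shared with the knockout.

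Immediate early genes, switched on within minutes of a stimulus and also by handling of cells, did not move together. Of 14 tested, 4 rose and 3 fell (50% called, against 27.4% of all genes), with a median of 0.04. Egr1 was at 11.7, 11.04 and 15.6 in TrB_KO and 3.91, 5.92 and 7.66 in eMZB_KO, a fall of 1.04 on the log2 scale, and Zfp36, which destabilises messenger RNA, fell from 47.9 ± 3.51 to 28.02 ± 2.83. The means of Jun were 3.995 ± 0.842 and 5.86 ± 0.538, higher in eMZB_KO, those of Junb 18.3 ± 1.999 and 13.03 ± 1.92, lower, and those of Dusp1 0.282 ± 0.172 and 1.20 ± 0.258, higher. All 3 were called with every library in, and each was not past the threshold in at least 1 fit without a knockout library, with largest adjusted p of 0.0566, 0.072 and 0.0547. The members that rose were 1 without TrB_KO replicate 1, eMZB_KO replicate 1 or eMZB_KO replicate 3 and 2 without eMZB_KO replicate 2, and those that fell were 5 without TrB_WT replicate 3.

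Receptors that place B cells in the spleen changed in both directions. Of 20 migration genes, 5 rose and 9 fell (70% called, against 27.4% of all genes). Their median was -0.14, or 0.17 as deposited, where the median gene was at 0.23. Ccr6 (Entrez 12458), the receptor of the chemokine CCL20, was at 3.49, 2.45 and 4.28 in TrB_KO and 22.3, 25.8 and 21.8 in eMZB_KO, a log2 change of 2.48 (SE 0.16, adjusted p = 4.97e-07). Gpr183 (EBI2), which guides B cells along oxysterol gradients, was at 5.34, 5.83 and 5.55 in TrB_KO and 16.01, 14.4 and 16.1 in eMZB_KO, a change of 1.33 (SE 0.10, adjusted p = 1.55e-06). Cxcr5, which directs cells to follicles, also rose, while Cxcr4 and the G protein genes Gna13 and Gnai2 fell, as did 5 of the RGS genes that dampen such receptors (Rgs2, Rgs13, Rgs14, Rgs18 and Rgs19). Rgs10 rose. In the adhesion list 7 of 23 rose and 7 fell (60.9% called), with a median of 0.18. Cdh17 (Entrez 12557), a cadherin, was at 3.10, 3.54 and 2.95 in TrB_KO and 11.4, 12.8 and 10.6 in eMZB_KO. Its knockout change was 1.58 (SE 0.11, adjusted p = 1.37e-06) and its wild-type change 0.66 (adjusted p = 0.00108), with adjusted p = 0.119 for the difference. Itgb1, the beta chain of the integrins that hold cells in the marginal zone, rose from 4.39 ± 0.249 to 11.2 ± 1.38. Among complement and Fc receptors, 4 of 10 rose and 4 fell (80% called), with the sorting marker Cr2 among the rises. Fcrl5 (Entrez 329693), an inhibitory Fc receptor-like protein of marginal zone cells, was at 4.24, 2.71 and 3.75 in TrB_KO and 33.1, 33.8 and 31.1 in eMZB_KO, a log2 change of 2.90 (SE 0.16, adjusted p = 1.75e-07). Cd55, which shields cells from complement, was at 24.9, 27.5 and 30.7 in TrB_KO and 7.38, 8.79 and 6.29 in eMZB_KO and fell by 1.76 on the log2 scale, and Fcrla fell from 90.9 ± 7.13 to 42.3 ± 2.51.

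The largest shift of any list by its median was in genes of amino acid supply and one-carbon metabolism. When amino acids run short or protein folding is disturbed, the factor ATF4 is made and switches on transporters, synthetic enzymes and tRNA synthetases, and one-carbon enzymes supply units for nucleotides. Of 27 tested members 24 rose and 2 fell (96.3% called, against 27.4% of all genes), and the median was 1.20. The counts were 24 and 2 in each of the 12 fits with a library left out. Slc7a5 (Entrez 20539), the light chain of a leucine transporter, was at 1.48, 0.847 and 2.08 in TrB_KO and 21.5, 21.3 and 23.3 in eMZB_KO. It had the largest rise among called genes that averaged 5 FPKM or more in a group, a log2 change of 3.25 (SE 0.26, adjusted p = 2.37e-06). Asns (Entrez 27053), asparagine synthetase, was at 1.51, 0.922 and 0 in TrB_KO and 11.8, 10.5 and 11.1 in eMZB_KO, a change of 2.84 (SE 0.27, adjusted p = 1.03e-05). Sesn2 (Entrez 230784), a leucine sensor that restrains mTORC1, was at 0.397, 0.233 and 0.0123 in TrB_KO and 6.37, 6.29 and 5.53 in eMZB_KO, on 8, 8 and 1 recovered reads in TrB_KO and 367, 287 and 310 in eMZB_KO. Mthfd2 (Entrez 17768) and Shmt2 (Entrez 108037), mitochondrial enzymes of the folate cycle, were at 1.98, 3.51 and 1.64 in TrB_KO and 17.3, 17.2 and 18.998 in eMZB_KO, and at 11.2, 11.8 and 12.04 in TrB_KO and 41.6, 36.99 and 41.8 in eMZB_KO. Their changes were 2.52 (SE 0.17, adjusted p = 1.05e-06) and 1.70 (SE 0.08, adjusted p = 9.8e-08). Trib3, a pseudokinase induced by ATF4, rose from 0.136 ± 0.124 to 3.73 ± 0.319, and Atf4 itself, whose protein is mainly set by translation, from 23.3 ± 2.35 to 33.4 ± 0.456. In wild type 23 of the 27 rose, all of them also in knockout, and the median was 0.96. TrB_KO replicate 3 had Asns at 0 and low Sesn2 and Trib3, and without that library the median was 1.02.

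Genes that load tRNAs with amino acids rose as well. Of 23 aminoacyl-tRNA synthetase genes 15 rose and 1 (Vars) fell (69.6% called, against 27.4% of all genes), and the median was 0.59. Aars (Entrez 234734), for alanine, was at 5.40, 7.03 and 8.23 in TrB_KO and 26.8, 26.6 and 28.4 in eMZB_KO, a log2 change of 1.86 (SE 0.13, adjusted p = 1.03e-06). Cars (cysteine) rose from 5.13 ± 1.42 to 17.1 ± 0.941, Iars (isoleucine) from 9.78 ± 1.24 to 27.5 ± 1.04, Yars (tyrosine) from 5.55 ± 0.445 to 15.7 ± 1.21 and Sars (serine) from 5.97 ± 0.241 to 16.4 ± 0.766. The synthetases for phenylalanine (Farsa, Farsb), histidine, glutamine and tryptophan were not called. In wild type 15 rose, the same 15.

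The letters TGATGCAA, to which ATF4 binds with a partner, stood on either strand in 3 of 22 members of the amino acid list with a promoter window (13.6%), Chac1, Pycr1 and Got1, and in 0.792% of all 7831 genes. The 250 bases before the start are shown for Got1 (chr19:43524606-43524855, minus strand) and Chac1 (chr2:119350992-119351241, plus strand), the members that rose with the smallest adjusted p among those with a match there. Got1, an aspartate aminotransferase, was at 5.84, 5.26 and 5.82 in TrB_KO and 11.1, 11.1 and 12.6 in eMZB_KO, and Chac1, which degrades glutathione, at 0.252, 0 and 0.313 in TrB_KO and 4.43, 4.37 and 2.65 in eMZB_KO. The matches, in capitals, began 102 and 193 bases before the start, and both read in the opposite direction to the gene.
Got1: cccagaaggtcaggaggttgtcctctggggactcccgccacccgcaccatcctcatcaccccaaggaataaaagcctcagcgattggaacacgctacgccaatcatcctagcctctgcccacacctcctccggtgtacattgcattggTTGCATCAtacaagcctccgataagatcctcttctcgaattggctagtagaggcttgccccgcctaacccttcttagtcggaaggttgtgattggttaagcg
Chac1: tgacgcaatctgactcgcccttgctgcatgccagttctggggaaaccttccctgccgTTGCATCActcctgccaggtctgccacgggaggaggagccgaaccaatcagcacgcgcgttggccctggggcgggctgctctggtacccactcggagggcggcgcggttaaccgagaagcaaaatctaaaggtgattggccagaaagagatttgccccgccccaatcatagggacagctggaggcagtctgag

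MYC, which drives growth by raising ribosome and nucleotide synthesis, rose with genes of its network. Myc (Entrez 17869) was at 8.97, 8.09 and 9.09 in TrB_KO and 23.3, 21.5 and 26.4 in eMZB_KO, a log2 change of 1.34 (SE 0.10, adjusted p = 1.5e-06). Of 19 list members 12 rose and 1 (Mxi1) fell (68.4% called, against 27.4% of all genes), and the median was 0.70. Npm1 (Entrez 18148), a nucleolar chaperone of ribosome assembly, was at 34.7, 34.6 and 26.4 in TrB_KO and 73.1, 72.9 and 67.1 in eMZB_KO, a change of 1.14 (SE 0.10, adjusted p = 7.3e-06). Ran, the GTPase of nuclear transport, rose from 22.7 ± 1.93 to 37.3 ± 1.91. Mxd3 and Mxd4, of the same family of MYC antagonists as Mxi1, were among the rises, and Mxi1 was not called without TrB_KO replicate 1 or eMZB_KO replicate 2. Of 50 ribosome biogenesis genes 26 rose (52% called) and the other 24 were not called, with a median of 0.39. Gnl3 (nucleostemin) was at 7.28, 5.86 and 5.01 in TrB_KO and 11.97, 11.3 and 13.2 in eMZB_KO, the helicase Ddx21 rose from 3.95 ± 0.919 to 7.55 ± 0.494, and the methyltransferase fibrillarin, Fbl, from 16.7 ± 1.92 to 24.3 ± 1.501. Of 40 translation initiation factor genes 21 rose (52.5% called) and the other 19 were not called, with a median of 0.32. Eif2s2, the beta subunit of the factor that carries the initiator tRNA, rose from 2.36 ± 0.105 to 5.72 ± 0.663, and the cap-binding inhibitor Eif4ebp1 from 9.89 ± 2.56 to 19.9 ± 2.95. In wild type 17 ribosome biogenesis genes rose, 16 of them shared, and 18 initiation factors, 16 shared. Chaperones of the cytosol and mitochondria rose in 17 of 21 genes (81.0% called, median 0.65). Hspa8 (Entrez 15481) was at 51.4, 49.3 and 48.3 in TrB_KO and 116, 113 and 113 in eMZB_KO, Hspa9 rose from 16.1 ± 1.72 to 38.5 ± 2.24 and the chaperonin Hspd1 from 12.6 ± 0.851 to 28.8 ± 0.21, and Tcp1, Cct2, Cct3, Cct4, Cct5, Cct6a, Cct7 and Cct8, the subunits of the cytosolic chaperonin ring, were all among the rises. Hsf1, the factor that heat shock activates, was not called.

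The E-box CACGTG, which MYC and MAX bind and which reads the same on both strands, stood in 8 of 16 members of the MYC network with a promoter window (50%), in 10 of 45 ribosome biogenesis genes (22.2%) and in 12.3% of all genes. Among those that rose it stood in 5 of 9 and 6 of 24, and whether matched members changed more was not tested. Cdk4, which drives cells out of the first gap phase, is shown (chr10:127063285-127063534, plus strand) because its window held 4 copies, which began 172, 118, 98 and 11 bases before the start. It was at 28.1, 27.8 and 25.5 in TrB_KO and 49.4, 46.7 and 47.1 in eMZB_KO, a log2 change of 0.79 (SE 0.08, adjusted p = 1.2e-05).
Cdk4: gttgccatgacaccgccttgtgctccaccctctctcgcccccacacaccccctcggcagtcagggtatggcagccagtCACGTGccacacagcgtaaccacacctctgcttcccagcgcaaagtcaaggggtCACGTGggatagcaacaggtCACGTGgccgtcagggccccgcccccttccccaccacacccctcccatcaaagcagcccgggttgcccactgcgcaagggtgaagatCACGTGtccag

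Genes of cell division rose in both of the lists tested. Of 53 DNA replication genes 23 rose and 5 fell (median 0.38, 52.8% called, against 27.4% of all genes). Of 47 mitosis genes 35 rose and 1 fell (median 0.66, 76.6% called). Rrm2 (Entrez 20135), the ribonucleotide reductase subunit made in S phase, was at 5.32, 6.17 and 4.77 in TrB_KO and 15.1, 15.9 and 15.3 in eMZB_KO, a change of 1.36 (SE 0.12, adjusted p = 7.44e-06). The subunits of the replication helicase, Mcm2, Mcm3, Mcm4, Mcm5, Mcm6 and Mcm7, were among the rises, as were Cdc6, Cdc45 and Pcna. Prim1, of the primase, rose from 2.75 ± 0.46 to 6.36 ± 0.463, while the polymerase subunit Pold1 fell from 25.6 ± 1.95 to 15.1 ± 0.859. E2f2 (Entrez 242705) was at 11.4, 11.4 and 12.3 in TrB_KO and 3.74, 2.96 and 4.65 in eMZB_KO, a change of -1.42 (SE 0.12, adjusted p = 3.68e-06), and Ccnd3, a D-type cyclin of B cells, fell from 11.2 ± 0.748 to 5.81 ± 0.159. In mitosis, Plk1 (Entrez 18817), the kinase of mitotic entry, was at 0.727, 0.819 and 0.749 in TrB_KO and 4.28, 3.75 and 5.58 in eMZB_KO, a change of 1.64 (SE 0.20, adjusted p = 7.84e-05). Ccna2 rose from 2.48 ± 0.48 to 8.48 ± 1.04, and the tubulins Tubb5 and Tuba1b from 12.8 ± 1.45 to 31.7 ± 1.11 and from 21.1 ± 0.568 to 58.04 ± 3.20, both of which have close copies that may share reads. Cdc25b (Entrez 12531), a phosphatase that activates CDK1, was at 22.6, 20.3 and 22.8 in TrB_KO and 7.60, 7.44 and 7.67 in eMZB_KO and was the mitosis gene that fell. In wild type 24 replication and 36 mitosis genes rose, 21 and 32 of them shared.

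The cell cycle homology region (CHR), with the letters TTTGAA, is bound by complexes that hold mitotic genes silent in resting cells and by others that switch them on. It stood on either strand in 25 of 38 mitosis genes with a promoter window (65.8%) and in 15.1% of all genes, and CCAAT, bound by NF-Y, in 28 of 38 (73.7%) against 43.9%. Of 44 replication genes 18.2% held TTTCCCGC and 18.2% TTTGGCGC, both letters of E2F sites, against 2.55% and 1.25% of all genes. Among the 22 replication genes with a window that rose, 3 and 4 held them. Among the 29 such mitosis genes 20 held TTTGAA and 22 CCAAT. Whether members with a match changed more than those without was not tested. Top2a (chr11:99024190-99024439, minus strand), which untangles chromosomes, and Ube2c (chr2:164769679-164769928, plus strand), a ubiquitin-conjugating enzyme of mitotic exit, are shown with the CHR letters in capitals. The last few bases of the Top2a window lie inside the gene's recorded span. The letters began 179 and 23 bases before the start of Top2a and 29 bases before that of Ube2c. Top2a was at 4.76, 3.37 and 3.52 in TrB_KO and 8.39, 8.18 and 10.3 in eMZB_KO, and Ube2c at 2.83, 0.498 and 4.36 in TrB_KO and 11.7, 9.43 and 13.4 in eMZB_KO.
Top2a: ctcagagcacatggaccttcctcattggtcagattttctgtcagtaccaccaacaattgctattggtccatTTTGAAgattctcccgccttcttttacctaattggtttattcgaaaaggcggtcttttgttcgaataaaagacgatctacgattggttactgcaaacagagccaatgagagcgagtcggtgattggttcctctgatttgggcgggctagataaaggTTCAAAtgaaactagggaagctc
Ube2c: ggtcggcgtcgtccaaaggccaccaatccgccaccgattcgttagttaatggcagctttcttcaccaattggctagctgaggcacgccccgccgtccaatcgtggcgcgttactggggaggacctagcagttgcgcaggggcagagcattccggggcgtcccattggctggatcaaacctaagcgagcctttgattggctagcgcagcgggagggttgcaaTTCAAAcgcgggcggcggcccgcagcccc

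**Figure D2:**
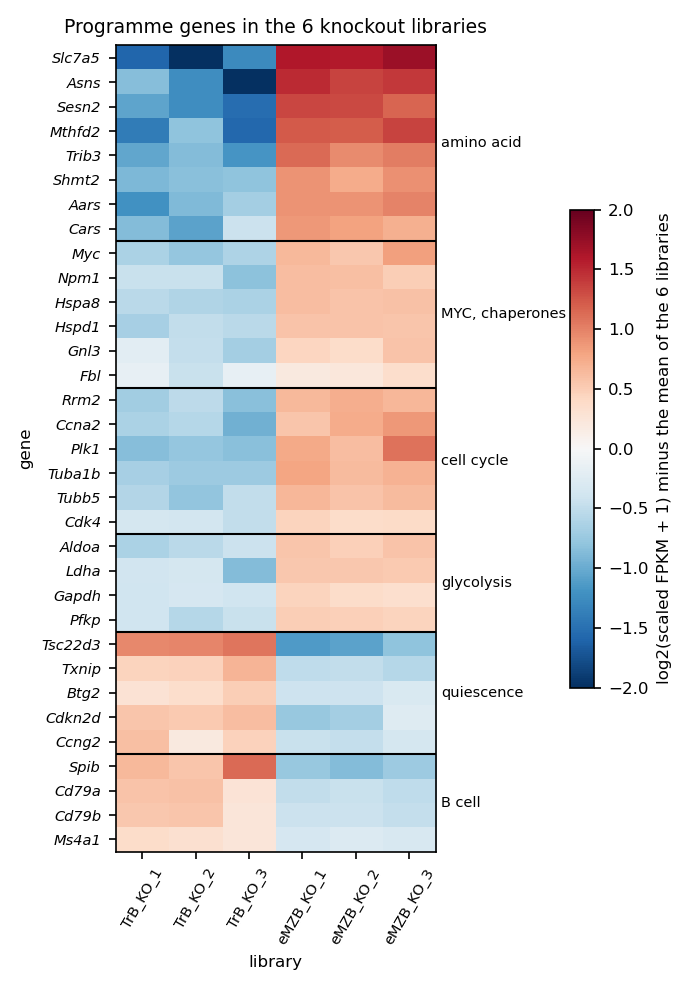
Log2(scaled FPKM + 1) of genes of 6 programmes (rows, grouped by programme) in the 6 knockout libraries (columns), each gene minus its mean over these libraries, on a scale cut at -2 and 2. The 3 eMZB_KO columns are above the gene's mean for the amino acid, MYC and chaperone, cell cycle and glycolysis genes and below it for the quiescence and B cell genes.

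Most of the glycolysis genes tested rose. Of 21 glycolysis genes 14 rose and 1 (Pfkfb3) fell (71.4% called, against 27.4% of all genes), and the median was 0.66. Ldha (Entrez 16828), which makes lactate, was at 48.8, 49.9 and 34.9 in TrB_KO and 93.6, 94.1 and 92.9 in eMZB_KO, a change of 1.07 (SE 0.12, adjusted p = 3.27e-05). Aldoa (Entrez 11674) (aldolase) was at 38.3, 40.9 and 44.7 in TrB_KO and 88.7, 84.5 and 90.2 in eMZB_KO, a change of 1.07 (SE 0.08, adjusted p = 1.49e-06). Pfkp, Tpi1 and Gapdh rose from 7.40 ± 0.486 to 15.1 ± 0.239, from 15.2 ± 0.621 to 26.5 ± 1.98 and from 59.8 ± 1.49 to 102 ± 4.11. Pfkfb3 was not called without TrB_KO replicate 1 or 2 or eMZB_KO replicate 2 or 3. Of 54 oxidative phosphorylation genes 17 rose (31.5%, with a median of 0.27, where 27.4% of all genes were called and 14.2% higher), among them Atp5g1, a ring subunit of ATP synthase, from 19.1 ± 3.47 to 31.998 ± 2.53, and Uqcrq, of complex III, from 27.6 ± 6.68 to 44.7 ± 3.03. The count was 9 without eMZB_KO replicate 1 and 10 without eMZB_KO replicate 3. Of 58 mitochondrial ribosome genes 4 rose (6.90%, median 0.15), Mrps6 from 2.38 ± 0.383 to 5.80 ± 1.24 with Mrpl12, Mrpl45 and Mrps15. Without TrB_KO replicate 1, TrB_WT replicate 1 or TrB_WT replicate 3 they were 10, 8 and 11, and voom on recovered reads called 15 higher. For oxidative phosphorylation voom called 26 higher, in a fit that called 34.9% of all genes, 18.1% higher. Cpt1a (Entrez 12894), which carries fatty acids into mitochondria for oxidation, was at 19.9, 19.7 and 19.8 in TrB_KO and 3.77, 3.07 and 3.54 in eMZB_KO, a log2 change of -2.22 (SE 0.13, adjusted p = 3.71e-07).

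Cholesterol synthesis is switched on by SREBP2 when membranes are short of sterol, while an excess of sterol turns on exporters. Of 29 genes 15 rose and 3 fell (62.1% called, against 27.4% of all genes), with a median of 0.48. Sqle (Entrez 20775), the squalene epoxidase, was at 1.58, 0.844 and 2.33 in TrB_KO and 7.23, 5.99 and 7.59 in eMZB_KO, a change of 1.65 (SE 0.19, adjusted p = 5.58e-05). Fdps rose from 4.19 ± 0.918 to 10.9 ± 1.33, Msmo1 from 2.03 ± 0.0971 to 5.16 ± 0.188 and Hmgcs1, an early enzyme, from 2.57 ± 0.23 to 6.05 ± 0.791. Abca1 (Entrez 11303), the cholesterol exporter, was at 3.83, 5.01 and 4.49 in TrB_KO and 1.504, 1.29 and 1.74 in eMZB_KO, and Nr1h2 and Mylip, of the response to excess sterol, fell too. In wild type 10 of the 29 rose, all also in knockout, with a median of 0.16. The difference between genotypes was not tested for the list, and for Msmo1 it had adjusted p = 0.512. The SREBP letters TCACNCCAC stood in 1 of 22 promoter windows, that of Hmgcs1, and in 1.35% of all genes.

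Protein handling moved in parts. Of 33 unfolded protein response genes 4 rose and 3 fell, 21.2% called, near the 27.4% of all genes. Pdia4 (Entrez 12304), a disulfide isomerase of the endoplasmic reticulum, was at 37.2, 39.99 and 52.5 in TrB_KO and 103, 109 and 119.7 in eMZB_KO, Hspa5 (BiP) rose from 54.1 ± 4.51 to 83.9 ± 11.2, and the ubiquitin ligase Syvn1 fell from 52.4 ± 5.17 to 27.8 ± 1.746. Xbp1 and Ern1 were not called. The members that fell were 1 without eMZB_KO replicate 1 or 2. In wild type 9 rose and 2 fell. The letters CCACG of the unfolded protein response element stood in 21 of 26 promoter windows (80.8%) and in 52.3% of all genes. The ATF4 letters stood in 1 of 26 (3.85%), against 0.792%. Of 37 proteasome genes 11 rose and 2 fell, 35.1% called, near the 27.4% of all genes, and the median was 0.22. The subunit Psmd7 rose from 11.96 ± 1.44 to 20.9 ± 1.45, and Psmb10, of the immunoproteasome, fell from 29.9 ± 0.939 to 21.8 ± 2.32. The 11 were 4 without eMZB_KO replicate 1 or 3, 6 without eMZB_KO replicate 2 and 7 without each eMZB_WT library in turn, and those that fell were 1 without TrB_KO replicate 2, without eMZB_KO replicate 2 or with replicate numbers as a block.

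In the plasma cell list 6 of 15 fell and 1 (Mzb1) rose (46.7% called, against 27.4% of all genes), with a median of 0.00. The repressors of the plasma cell fate Pax5 and Bach2 stood among the 6 with the surface proteins Sdc1 and Slamf7, Bhlhe41 and Jchain (Entrez 16069), which joins antibody polymers. Jchain was at 17.9, 41.98 and 59.2 in TrB_KO and 0.658, 4.26 and 5.27 in eMZB_KO, a log2 change of -3.27 (SE 0.91, adjusted p = 0.0175). Its libraries spread widely within each group, and the call was lost without TrB_KO replicate 2, TrB_KO replicate 3 or eMZB_KO replicate 1 (adjusted p up to 0.0794). In wild type Jchain was at 0.405, 21.9 and 24.2 in TrB_WT and 9.11, 12.6 and 14.5 in eMZB_WT, a change of 0.47 (adjusted p = 0.735), and the difference between genotypes was not called (adjusted p = 0.686). Prdm1, Xbp1 and Irf4, which drive the fate, were not called. Without eMZB_KO replicate 1 the 6 were 3.

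Among genes of antigen presentation on MHC class II, 5 of 17 rose and 3 fell (median 0.16, 47.1% called, against 27.4% of all genes). Lgmn (Entrez 19141), a protease of endosomes, was at 19.3, 20.7 and 25.2 in TrB_KO and 58.6, 57.8 and 66.2 in eMZB_KO, a change of 1.45 (SE 0.13, adjusted p = 5.75e-06), H2-Eb1 rose from 151 ± 7.78 to 232 ± 3.10 and Ctss, which trims the invariant chain, from 99.6 ± 5.91 to 141 ± 2.36. Ifi30, the thiol reductase of the same compartment, was at 139.8, 142 and 106 in TrB_KO and 53.03, 46.5 and 48.3 in eMZB_KO, a fall of 1.36 on the log2 scale. For Toll-like receptor genes the share called was 28.6%, near the 27.4% of all genes, with 4 of 21 higher and 2 lower. Tlr7, a sensor of single-stranded RNA, rose from 5.04 ± 1.02 to 10.97 ± 0.365 and the adaptor Ticam1 from 1.74 ± 0.158 to 4.99 ± 0.0331, while Unc93b1, which escorts such receptors to endosomes, fell from 171 ± 7.97 to 107 ± 4.25. The kinase Irak1 had 13.6 ± 1.38 and 19.3 ± 1.68, a call (adjusted p = 0.0341) lost without any of 5 of the knockout libraries (TrB_KO replicates 1 and 2 and each eMZB_KO library), and the 4 that rose were 2 without TrB_KO replicate 1 or any eMZB_KO library. Interferon response genes had 2 of 40 higher and 7 lower, 22.5% called, near the 27.4% of all genes, with a median of -0.10, or 0.18 as deposited. Of those that rose, Ly6a (Entrez 110454), the surface antigen Sca-1, was at 73.9, 74.7 and 83.6 in TrB_KO and 326, 369 and 311 in eMZB_KO, and Isg15 (Entrez 100038882), a ubiquitin-like modifier, at 1.74, 2.45 and 1.86 in TrB_KO and 9.39, 7.85 and 7.26 in eMZB_KO. The RNA sensor Ddx58 (RIG-I) fell from 16.1 ± 1.16 to 8.91 ± 0.192 and the receptor chain Ifnar1 from 10.04 ± 1.96 to 5.81 ± 0.255. The 7 were 4 without eMZB_KO replicate 3. Epigenetic regulators, LSD1's partners among them, had 3 of 45 higher and 7 lower. The share called was 22.2%, near the 27.4% of all genes, with a median of -0.09, or 0.16 as deposited. Kdm1b (Entrez 218214), which encodes the related demethylase LSD2, was at 6.06, 3.79 and 7.64 in TrB_KO and 2.51, 3.18 and 2.69 in eMZB_KO, a change of -0.81 (SE 0.17, adjusted p = 0.00407). The histone demethylases Kdm3a and Kdm3b fell from 7.55 ± 0.824 to 5.21 ± 0.393 and from 7.70 ± 0.844 to 4.998 ± 0.147. Rcor1, Hdac1 and Hdac2 were not called. With replicate numbers as a block 5 rose. The 3 that rose were 1 without eMZB_KO replicate 1 and 6 without TrB_WT replicate 3.

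**Figure D3:**
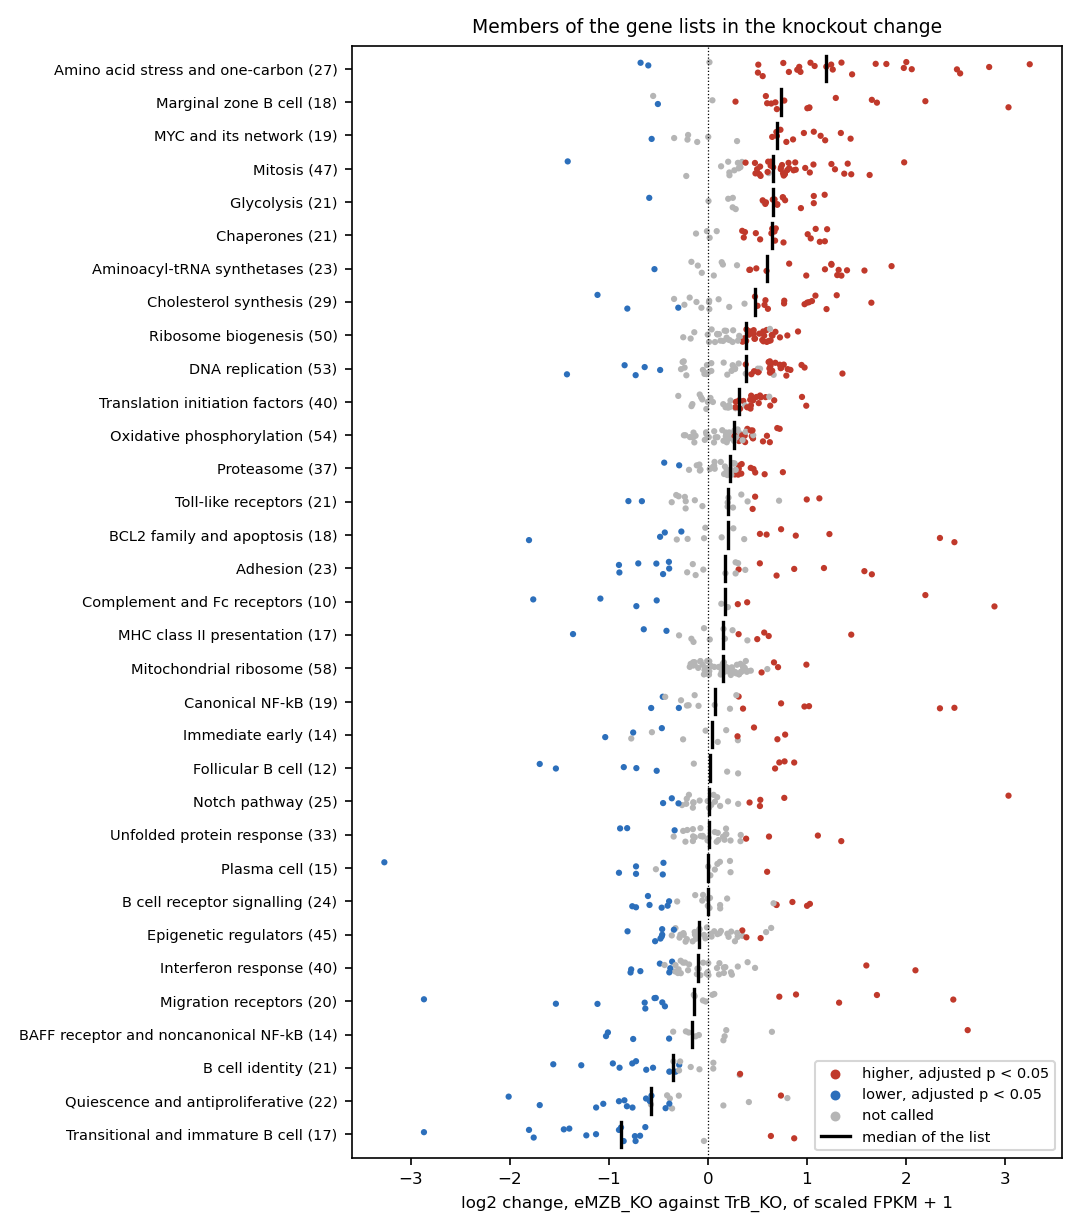
Log2 change of each tested member of 33 gene lists (points, with the number of members in brackets) between eMZB_KO and TrB_KO, coloured by call, with the median of each list as a bar. The lists are ordered by median, from -0.88 for transitional genes to 1.20 for amino acid and one-carbon genes.

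Several of the largest single changes lay outside these lists. Il9r (Entrez 16199), the receptor of interleukin 9, was at 0.425, 0.623 and 0.306 in TrB_KO and 13.001, 11.6 and 12.5 in eMZB_KO, a log2 change of 3.21 (SE 0.16, adjusted p = 1.19e-07). Plaur (Entrez 18793), the urokinase receptor, was at 3.19, 2.11 and 2.11 in TrB_KO and 26.7, 31.8 and 27.6 in eMZB_KO, a change of 3.11 (SE 0.20, adjusted p = 5.28e-07). Socs3 (Entrez 12702), which damps cytokine receptors that signal through STAT3, was at 0.581, 0.142 and 0.444 in TrB_KO and 6.34, 6.47 and 10.3 in eMZB_KO, and Tgfb3 (Entrez 21809), a growth factor of the TGF-beta family, at 0.623, 1.05 and 0.416 in TrB_KO and 8.37, 8.35 and 9.80 in eMZB_KO. Their changes were 2.63 (SE 0.19, adjusted p = 1.24e-06) and 2.55 (SE 0.16, adjusted p = 5.76e-07). Cxcl12 (Entrez 20315), the chemokine that CXCR4 binds, was at 0.129, 0.0755 and 0.00914 in TrB_KO and 2.61, 4.09 and 22.3 in eMZB_KO, a change of 2.82 (SE 0.64, adjusted p = 0.0059). The eMZB_KO libraries differed among themselves, with replicate 3 far above the others, and in eMZB_WT the values were 1.84, 7.07 and 15.2. Within both cultured groups Vim, the listed stromal marker, was also highest in replicate 3 (21.6 and 20.3). It was higher still in all transitional libraries, which were not cultured (30.9 to 35.2 in TrB_KO and 27.8 to 32.6 in TrB_WT). Whether stromal RNA had a part in the Cxcl12 values was not tested. A fit on recovered reads with voom did not call Cxcl12 (adjusted p = 0.0879).

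On the side of the falls, Wfdc21 (Entrez 66107), a secreted protein with a whey acidic protein domain (chromosome 11, 83746940 to 83752646, GRCm38), was at 33.7, 40.6 and 14.9 in TrB_KO and 0, 0 and 0.108 in eMZB_KO. It had 542 reads over the TrB_KO libraries and 1 over the eMZB_KO libraries, a ratio of 637 with an exact 95% interval of 114 to 25200, which covers counting error alone. Myadm (Entrez 50918), a membrane protein of lipid rafts, was at 24.2, 26.2 and 29.2 in TrB_KO and 1.48, 1.14 and 2.33 in eMZB_KO, and Serinc5 (Entrez 218442), a lipid scramblase that viruses are known to counter, at 29.4, 29.8 and 34.4 in TrB_KO and 2.58, 2.15 and 2.20 in eMZB_KO. Their changes were -3.40 (SE 0.15, adjusted p = 5.31e-08) and -3.28 (SE 0.10, adjusted p = 3.99e-09). Atp1b1 (Entrez 11931), the beta subunit of the sodium pump, was at 11.7, 13.2 and 13.4 in TrB_KO and 1.01, 1.66 and 1.41 in eMZB_KO, and Col5a3 (Entrez 53867), a collagen chain, at 4.65, 4.57 and 6.48 in TrB_KO and 0.0408, 0.112 and 0.272 in eMZB_KO. The collagen gene fell in wild type from 12.003 to 0.118, and the difference between genotypes had adjusted p = 0.149. Niban3, a B cell protein, fell from 102 ± 12.6 to 19.1 ± 1.45, Pafah1b3, of an acetylhydrolase of platelet activating factor, from 51.1 ± 6.51 to 9.31 ± 1.21, Endou, a ribonuclease, from 8.66 ± 0.771 to 1.07 ± 0.0459, Ccdc88b from 6.40 ± 1.65 to 0.652 ± 0.144 and the kinase anchor Akap12 from 19.97 ± 0.827 to 3.78 ± 0.754.

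Whether these changes differed without LSD1 was asked with the interaction, the knockout change minus the wild-type change. The pairs compared share no libraries, but the same estimate of spread per gene served both changes, and the scaling factors were computed together. A gene with a small spread is thus more readily called in both, so the overlap of calls is not independent agreement. Of genes that rose in knockout 995 also rose in wild type, 71.2% of the knockout list and 69.1% of the wild-type list, and 858 fell in both, 66.2% and 68.5%. In wild type 27.4% of genes were called (1440 higher, 1253 lower). Another 840 genes were called in knockout and not in wild type, of which 786 had the same sign there. Across all genes the changes correlated with Pearson r of 0.81, with genes not being independent replicates. A single gene passed in the interaction (0.0102% of those tested), and 674 had an unadjusted p under 0.05. Among 868 different genes of the lists the adjusted test in limma called 0 and so did voom, with 82 at an unadjusted p under 0.05. Without both libraries labelled wild-type replicate 3, whose Kdm1a was below that of the other wild-type libraries, 2 genes passed.

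**Figure D4:**
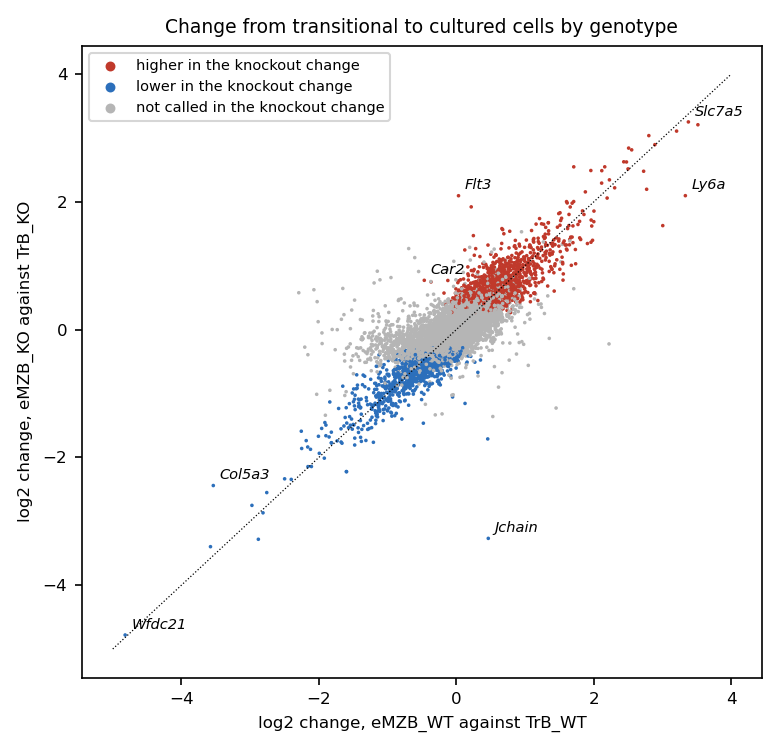
Log2 change of 9842 genes from transitional to cultured cells in wild type (x axis) and knockout (y axis), coloured by the knockout call, with a dotted line where both are equal. Of the 2695 called genes, 995 and 858 share direction and call with wild type, and Flt3 (2.10 in knockout, 0.03 in wild type) and Jchain (-3.27 and 0.47) lie away from it.

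The gene called was Flt3 (Entrez 14255), a receptor tyrosine kinase of lymphoid progenitors and dendritic cells that B cells shut off as they commit (chromosome 5, 147330741 to 147400489). It was at 0.469, 0.402 and 0.43 in TrB_KO and 5.67, 4.52 and 5.27 in eMZB_KO, and at 0.864, 0.747 and 0.721 in TrB_WT and 1.06, 0.737 and 0.675 in eMZB_WT. The 3 eMZB_KO libraries lay above the other 9. The knockout change was 2.10 (SE 0.13, adjusted p = 4.97e-07), the wild-type change 0.03 (adjusted p = 0.877), and the difference 2.06 (adjusted p = 9.08e-04), on 284 to 450 reads in eMZB_KO and 13 to 63 in the others. It passed in all 12 fits with a library left out (adjusted p 0.00141 to 0.0105) and was not past the threshold when genes under 5 FPKM were left out (adjusted p = 0.154). Flt3 is also a dendritic cell marker. Of the 6 such markers Bst2 was the other listed one, at 17.7, 23.6 and 16.4 in TrB_KO and 17.3, 15.3 and 14.2 in eMZB_KO (log2 change -0.27, adjusted p = 0.137), and the part of such cells in the result was not tested.

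Opposite calls in both genotypes were seen for 2 genes, which are named here after their values were seen. Car2 (Entrez 12349), a carbonic anhydrase, was at 2.65, 2.98 and 2.72 in TrB_KO and 4.94, 5.49 and 6.00 in eMZB_KO, and at 2.17, 1.53 and 1.24 in TrB_WT and 0.979, 0.903 and 0.81 in eMZB_WT. It rose in knockout by 0.77 (SE 0.13, adjusted p = 0.00111) and fell in wild type by 0.47 (adjusted p = 0.0214). Epm2aip1, a partner of the glycogen phosphatase laforin, was at 3.19, 3.19 and 3.50 in TrB_KO and 2.50, 1.74 and 2.06 in eMZB_KO, and at 2.01, 2.21 and 2.62 in TrB_WT and 3.23, 3.05 and 3.25 in eMZB_WT. The differences themselves were not called (adjusted p = 0.0812 and 0.184). Ly6a rose in both, by 2.10 in knockout from the higher start of 77.4 and by 3.33 in wild type from 27.7, with adjusted p = 0.149 for the difference.

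**Figure D5:**
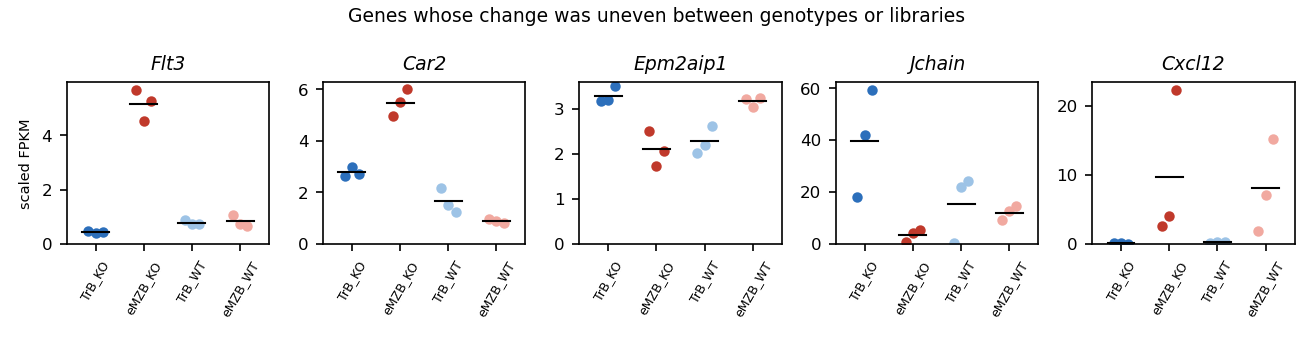
Scaled FPKM of Flt3, Car2, Epm2aip1, Jchain and Cxcl12 in each library of the 4 groups on the x axis, with points for libraries and lines for group means. Flt3 lies at 4.52 to 5.67 in eMZB_KO and at or under 1.06 in the other 9 libraries. Cxcl12 has 1 library far above the others in eMZB_KO (22.3) and a graded spread in eMZB_WT (1.84, 7.07 and 15.2).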

How the data were processed

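Transcripts of 12 libraries (4 groups of 3, 2000 cells each) were measured by SMART-Seq v4 RNA sequencing, per the labels' protocols, in a kit that does not mark strand. The authors deposited 1 table of FPKM for 9842 genes, and STAR and mm10 are named per the submitters' processing notes. How genes were chosen for the table is not given in the sources used here. FPKM were divided by median-of-ratios factors, and log2(FPKM + 1) was fitted with limma 3.58.1 (R 4.3.3, group means, trend, 8 residual degrees of freedom), with Benjamini-Hochberg adjustment over all genes and contrasts for the knockout change, the wild-type change and their difference. Whole reads were recovered from the FPKM steps (tolerance 0.02 reads) for depths and a voom fit. The fit was also run on simulated reads with the same dispersion in every gene and library. That run does not measure its errors on these libraries, whose replicates spread unevenly. Replicates of 1 group differed beyond counting noise (chi-square per degree of freedom 3.37 to 18.6).

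Members and the 33 lists were chosen with earlier results of these data known. Named were the sorting markers, the 15 largest rises and falls among called genes of at least 5 FPKM whose groups did not overlap (without predicted, immunoglobulin and small RNA genes), up to 5 called members per list by adjusted p, and genes called in the difference. Outside this rule, and chosen after their values were seen, are Atf4, Ccnd3, Hes1, Notch2, Rbpj, Mcl1, Hmgcs1, Car2, Epm2aip1, Vim, Ly6c2 and Bst2, and, for their promoters, Got1, Chac1, Top2a and Ube2c. Promoters are RefSeq GRCm38.p6. Some genes that the rule names are not reported here. Same-numbered knockout libraries deviated together (r = 0.161, 0.106 and 0.292 for numbers 1, 2 and 3, and 0.07, 0.015 and 0.273 in wild type), and each knockout value over 0.1 was taken as a pairing. Crossing numbers 1 and 2 gave r of 0.12 and 0.083, so that these 2 are not told apart, and the labels do not say what a number shares.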

Additional observations from a re-analysis of the deposited data

Results flagged for a closer look

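The change of Flt3, a receptor tyrosine kinase, from transitional to cultured cells differed between genotypes by a direct test of the difference. The knockout change exceeded the wild-type change by 2.06 on the log2 scale (limma adjusted p = 9.08e-04). All 3 eMZB_KO libraries lay above all 9 others. The adjusted p ran from 0.000854 to 0.154 over the alternatives.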

How the results depend on the processing

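The FPKM as deposited gave 460 knockout calls, 426 of them among the 2695 after scaling, and 6688 without TrB_KO replicate 3 (an alternative chosen after seeing the data). For the difference between genotypes they gave 15 calls. The filter at 5 FPKM gave 0 there with limma (391 genes at an unadjusted p under 0.05), leaving out both libraries labelled wild-type replicate 3, with less Kdm1a than the other wild-type libraries, gave 2, and leaving out 1 library at a time gave 1 to 5, the highest without TrB_WT replicate 3. The replicate block gave 2683 knockout calls and, of the named calls, changed that of Cd1d1 alone. Quantile normalization, factors from genes of at least 5 FPKM, a pseudocount of 0.1 and voom gave 2664, 2707, 2592 and 3432 knockout calls. The cause of these differences was not tested. Of 171 named calls 164 passed in all 12 fits with 1 library left out and 74 as deposited, and 26 had the other sign as deposited without TrB_KO replicate 3. Of the counts of called members per list, 1233 stayed within 1.5 times and 153 moved further. Depth limits low genes, and miRNA genes had a median of 2.58 reads.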

Other observations

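The share of genes called is given here by class of gene. Of 9304 protein-coding genes 1371 rose and 1241 fell (28.1% called), of 257 long noncoding RNA genes 14 rose and 37 fell (19.8%), of 143 miRNA genes 6 rose and 4 fell (6.99%), and of 54 snoRNA genes 6 were called, each lower (11.1%). The median of mean reads per library was 236.3, 36, 2.58 and 2.54 in these classes. Whether the shares differ at equal depth was not tested.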
